A study of Rattus norvegicus with 21 samples.

Results

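The genes described here encode the subunits of the proteasome, the protease that degrades ubiquitin-tagged proteins, and the main families of molecular chaperones, which fold and refold proteins. They were picked by symbol alone: Psma, Psmb, Psmc, Psmd, Psme, Hspa, Hspb, Hspd, Hspe, Hsph, Dnaja, Dnajb, Dnajc or Cct followed by a digit, or Hsp90. This rule was met by 116 of 16245 symbols, or 118 if no digit was asked for. A symbol was kept when it was above 0 in at least 3 of the 21 cells. That left 93 members, 37 of the proteasome and 56 chaperones. Of the 23 left out, 14 were at 0 in every cell and 9 were above 0 in 1 or 2 cells.

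The cells are 21 single hippocampal neurons from Wistar rats, taken at embryonic day 18 and kept 17 days in vitro. All carry a transgene that places the fluorescent protein Venus under the vesicular GABA transporter (VGAT), which marks GABAergic, inhibitory neurons. Cultures in which the glia remained gave 5 pyramidal and 6 GABAergic neurons. In the other cultures an antimitotic mixture labelled FdU,U at 5 µM was added 24 h after dissection and removed after 36 h. From these came 5 GABAergic neurons without conditioned medium, called purified, and 5 that received oligodendrocyte-conditioned medium (OCM), added on day 3 in vitro. Glia and the antimitotic mixture therefore differ together, and their parts cannot be told apart. The OCM itself came from cortical oligodendrocytes of rats at postnatal day 2. Each neuron was recorded with a patch electrode, its content was aspirated, and its polyadenylated RNA was amplified and sequenced. Which animal or culture a neuron came from is not labelled, so a group counts as 1 sample. No test was possible, no p-value is given, and every SD and range describes the spread between cells.

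The proteasome consists of a barrel-shaped core, the 20S particle, and a cap, the 19S particle. The core has outer rings of alpha subunits (Psma), which gate entry, and inner rings of beta subunits (Psmb), some of which cut proteins. The cap has a ring of ATPases (Psmc), which unfold the substrate, and non-ATPase subunits (Psmd), which bind ubiquitin and remove it. Among chaperones, Hsp70 proteins (Hspa) bind exposed stretches of unfolded proteins, J-domain proteins (Dnaj) bring substrates to them, and Hsp110 proteins (Hspa4, Hspa4l, Hsph1) exchange their nucleotide. Hsp90 matures kinases and receptors, and the ring-shaped CCT complex folds actin and tubulin, which neurons need for axons and dendrites.

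Heat shock factor and the unfolded protein response are the known regulators of many chaperone genes, so the promoters of the members that hold their binding motifs are shown before the values. RefSeq promoters in build GRCr8, which is not the build of the expression table (rn6), were present for 79 of the 93 members. The heat shock element was searched as GAA, TTC and GAA with 2 free bases between each. Both strands were searched, in a window of the 250 bases before the start. It was found in 4 members, Hspa8, Hsph1, Hspd1 and Hspe1, and in 0.597% of all 27457 promoters. Only this exact pattern was searched, and 14 members had no promoter. A member not named here is therefore not shown to lack the element. The endoplasmic reticulum (ER) stress element, searched as CCAAT and CCACG with 9 free bases between, was found in Hspa5, Hsp90b1 and Dnajc3, and in 0.0765% of all promoters. Below, the 250 bases before the start are printed 5′ to 3′ along the gene's strand, with the matches in capitals. Hspa8 lies on the plus strand (chr8:50080264-50080513) and Hsph1 too (chr12:10427118-10427367), and Hspd1 on the minus strand (chr9:64084038-64084287). Hspa5 lies on the plus strand (chr3:38452766-38453015), Hsp90b1 on the minus strand (chr7:23012294-23012543) and Dnajc3 on the plus strand (chr15:102432417-102432666).
Hspa8: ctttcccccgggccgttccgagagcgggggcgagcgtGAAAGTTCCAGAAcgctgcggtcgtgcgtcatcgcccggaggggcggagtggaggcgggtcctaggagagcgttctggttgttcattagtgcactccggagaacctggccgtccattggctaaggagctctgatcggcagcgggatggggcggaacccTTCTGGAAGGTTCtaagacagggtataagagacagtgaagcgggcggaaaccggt
Hsph1: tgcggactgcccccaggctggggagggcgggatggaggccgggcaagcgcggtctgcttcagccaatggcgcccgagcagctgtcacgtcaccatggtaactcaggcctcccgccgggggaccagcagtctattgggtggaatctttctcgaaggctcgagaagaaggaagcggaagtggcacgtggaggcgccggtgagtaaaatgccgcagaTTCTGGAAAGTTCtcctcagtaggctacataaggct
Hspd1: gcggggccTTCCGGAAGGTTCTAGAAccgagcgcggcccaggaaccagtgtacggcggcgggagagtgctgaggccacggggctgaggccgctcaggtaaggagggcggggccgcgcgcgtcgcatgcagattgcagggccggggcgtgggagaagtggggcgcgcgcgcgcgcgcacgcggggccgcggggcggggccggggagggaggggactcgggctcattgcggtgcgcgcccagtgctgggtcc
Hspa5: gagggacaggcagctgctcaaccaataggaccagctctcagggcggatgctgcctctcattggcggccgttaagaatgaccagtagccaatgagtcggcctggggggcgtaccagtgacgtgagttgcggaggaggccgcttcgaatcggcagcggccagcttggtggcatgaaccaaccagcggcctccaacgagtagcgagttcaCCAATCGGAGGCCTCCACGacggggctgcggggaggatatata
Hsp90b1: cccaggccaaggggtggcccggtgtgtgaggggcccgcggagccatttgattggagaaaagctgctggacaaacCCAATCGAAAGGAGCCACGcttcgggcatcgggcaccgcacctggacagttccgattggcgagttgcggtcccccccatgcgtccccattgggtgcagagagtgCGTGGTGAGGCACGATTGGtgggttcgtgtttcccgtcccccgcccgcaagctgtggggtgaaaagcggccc
Dnajc3: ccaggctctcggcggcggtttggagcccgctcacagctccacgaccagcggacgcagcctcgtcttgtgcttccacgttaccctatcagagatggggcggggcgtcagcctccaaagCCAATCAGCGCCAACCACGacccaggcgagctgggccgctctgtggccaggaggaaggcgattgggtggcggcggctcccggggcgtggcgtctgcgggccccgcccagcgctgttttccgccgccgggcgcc
Hspa8, the constitutive Hsp70 of the cytosol, and Hsp90b1, the Hsp90 of the ER, each hold 2 separate matches. The capitals of Hspd1 are 2 overlapping matches on opposite strands. Hspd1 and Hspe1, the chaperonin and cochaperonin of mitochondria, lie head to head and share these bases, so they count as 1 place in the genome (chr9:64084262-64084279). The core of the antioxidant response element, TGACNNNGC, was in 7 of 33 proteasome promoters (21.2%), 6 of 46 chaperone promoters (13%) and 10.2% of all promoters. Among its holders were Psmb2, Psmb5 and Psmb6. A match describes the letters of the window and shows no binding.

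The cells held 1817671 to 25160911 reads each. At an equal number of reads, drawn down to that of the shallowest cell, genes above 0 numbered 3602 to 8217 in GABAergic cells with glia, 2536 to 3788 in purified cells, 3753 to 5660 in OCM-treated cells and 2451 to 4986 in pyramidal cells. Between 3 and 6 of 6 pan-neuronal markers were above 0 in each cell. GABAergic markers summed to a normalized count of 21196 or more in every GABAergic cell and 927 or less in pyramidal cells, in which glutamatergic markers summed to 1817 to 27348. Oligodendrocyte markers summed to a normalized count of 324915 in pyramidal cell 3 and 103570 in pyramidal cell 4, to 1840 or less in the other pyramidal cells, and to 1352 or less in every GABAergic cell. Cell 3 also held astrocyte markers at 65192 and microglia markers at 24110. The family medians of pyramidal cells, their main counts, and the differences of Hspa9 and Hspa12a are given with and without cells 3 and 4. Other summaries of pyramidal cells, such as detection, class medians and shares of reads, include both cells. The titles of the samples begin with P, S or ech, which the labels do not explain: all OCM-treated cells and 4 of 5 purified cells bear an S, but 1 of 6 GABAergic cells with glia does. Cell numbers are names only.

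Proteasome members were found in more cells than chaperones, and both were found less often in pyramidal and purified neurons. Over all pairs of a member and a cell, proteasome members were above 0 in 88.7% with glia, 75.1% in purified, 88.1% in OCM-treated and 69.7% in pyramidal cells. For chaperones these shares were 76.5%, 47.5%, 62.5% and 49.3%. The 7927 symbols above 0 in at least 3 of the 21 cells were found less often in each group, in 58.1%, 34.9%, 50.1% and 35.5% of pairs. The number of members above 0 in a cell moved with the number of genes found in it, with Pearson's r of 0.81 for the proteasome and 0.94 for chaperones over 21 cells (Spearman's rho 0.83 and 0.90). These points share a library and its depth, and the part of gene detection in the differences below was not tested. In cells where a proteasome member was found, its median normalized count was 1344 with glia and 1790 in purified cells. For all symbols it was 649 and 1146, so fewer detections went with higher values in each case.

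As a share of a cell's reads the proteasome members were higher in purified than in glia-cultured GABAergic neurons. The share was 0.652% at the lowest, 0.702% at the median and 0.773% at the highest with glia. It was 0.913%, 0.824%, 0.843%, 0.884% and 0.810% in purified cells 1 to 5, so the cells of these groups did not overlap. The means were 0.855% (SD 0.0429, 5 cells) and 0.704% (SD 0.050, 6 cells), a difference of 0.151 percentage points. OCM-treated cells had 0.762%, 0.977%, 0.858%, 1.03% and 0.717%, and pyramidal cells 0.787%, 0.406%, 0.464%, 0.934% and 0.764%, both overlapping the other groups. The OCM-treated mean was 0.869% (SD 0.134, 5 cells), 0.165 points above the mean with glia, so the higher mean was not particular to purified cells. The 95% Clopper-Pearson interval of pyramidal cell 2, the shallowest, was 0.397% to 0.415%, so counting error was small beside the spread between cells. Intervals cover counting error only, since no molecular identifiers are mentioned in the labels. The gap between purified and glia-cultured cells was small and rested on several members: it stayed when any 1 of 32 members was left out, and the cells overlapped without Psma4, Psmb1, Psmb5, Psmc1 or Psmd13. Among cells titled S the difference was 0.213 points, with 1 glia-cultured cell, and among cells titled P it was 0.0908 points, with 1 purified cell. On the authors' normalized scale the summed counts overlapped, at 56437 to 70167 in purified cells and 51633 to 58592 with glia.

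The chaperone share of reads overlapped among all 4 groups. Its means were 1.10% (SD 0.209, 6 cells) with glia, 1.01% (SD 0.295, 5 cells) in purified, 1.13% (SD 0.144) in OCM-treated and 0.906% (SD 0.219) in pyramidal cells. Purified cells spread most, from 0.597% to 1.32%. Fewer chaperone genes were thus found in purified cells while their summed share of reads lay in the same range.

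**Figure D1:**
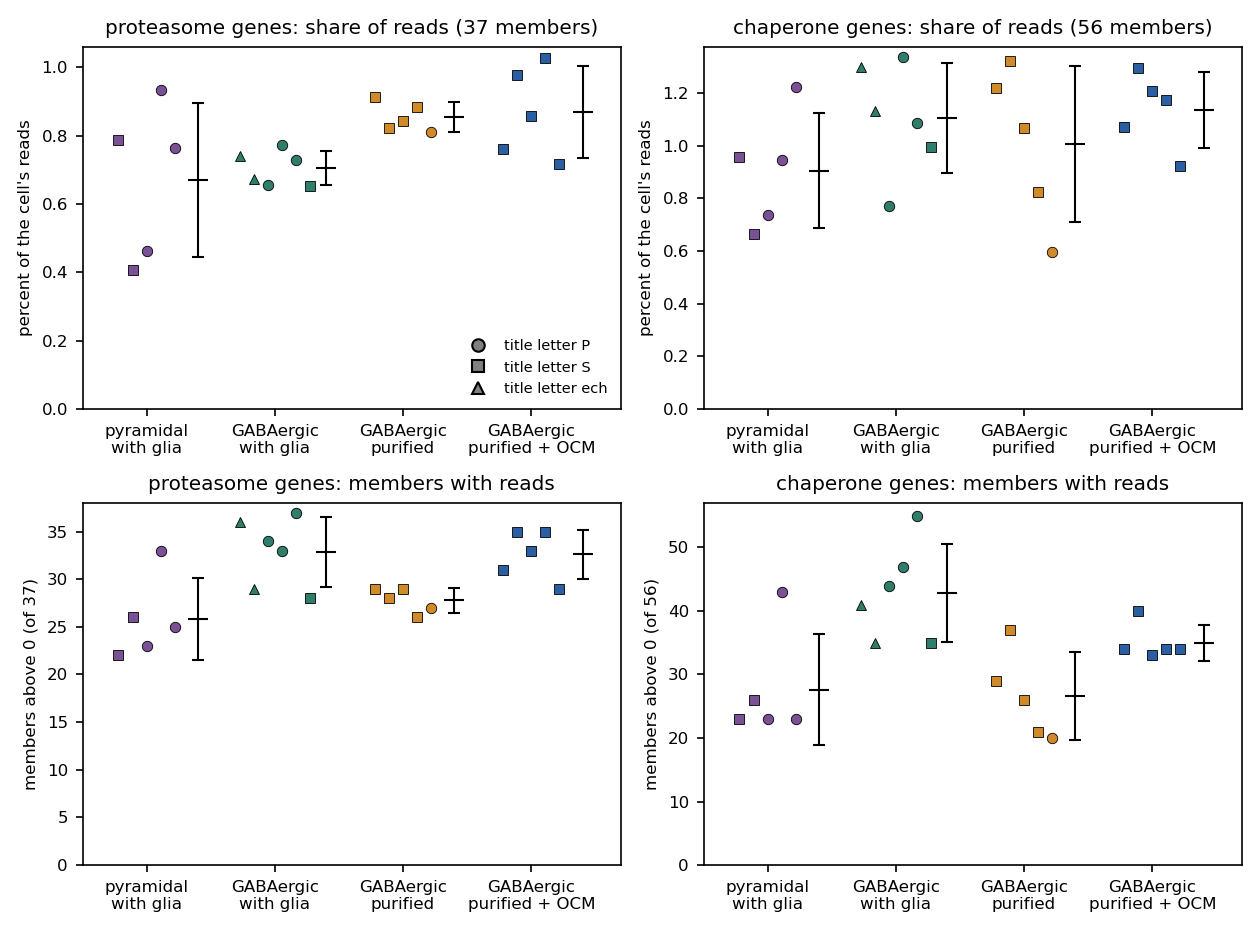
Share of a cell's reads (top, percent) and number of members above 0 (bottom) for 37 proteasome and 56 chaperone genes, 1 point per cell with the title letter as its shape; the bar beside each group is the mean and SD over its 5 or 6 cells. Purified cells lie at 0.810% to 0.913% for the proteasome, above all glia-cultured GABAergic cells at 0.652% to 0.773%, while they hold fewer chaperone genes, 20 to 37 against 35 to 55.

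Among the alpha subunits of the core, every one of the 7 was above 0 in all GABAergic cells with glia and all OCM-treated cells (100% of pairs), against 82.9% of pairs in purified and 74.3% in pyramidal cells. Psma1 was 1173, 991, 907, 0 and 2525 in purified cells and 550, 1772, 1379, 509 and 1230 in OCM-treated cells. Psma7 was 4621, 0, 362, 2329 and 1280 in purified cells, against 1812, 2331 and 3830 at the lowest, median and highest with glia. Psma5 (chromosome 2, 211050344 to 211073706 in rn6) was 0, 5.90, 0, 203 and 1198 in pyramidal cells and 656, 1334 and 3787 with glia, where only pyramidal cell 5 reached the glia-cultured range. Summed over the alpha ring, the share of reads was 0.0456% to 0.128% in pyramidal cells and 0.108% to 0.157% with glia.

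The beta subunits were above 0 in 91.4% to 97.6% of pairs in every group, pyramidal cells included. Psmb5 (chromosome 15, 33259040 to 33263634), the chymotrypsin-like protease subunit, was above 0 in all 21 cells. It was 4728, 6293, 1831, 2981 and 7932 in purified cells, 3604, 2933, 5720, 2757 and 3286 in OCM-treated cells, and 1681, 2277 and 4933 with glia. Pyramidal cells had 1706, 1805, 440, 2540 and 127 of it. The highest Psmb5 count thus lay in a purified cell and the lowest in a pyramidal cell, and the 3 GABAergic groups overlapped. Psmb6, the caspase-like subunit, was 1041 to 5596 in purified cells and 208 to 2071 with glia. Psmb1, a core subunit without a cutting site, was above 0 in all cells but purified cell 5, and reached 8732 in purified cell 3. Summed over the ring, the share of reads was 0.243% to 0.305% in purified cells and 0.146% to 0.257% with glia, overlapping at the edge.

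Of the immunoproteasome core, which replaces the cutting subunits in immune cells and under interferon, only Psmb10 passed the filter. It was above 0 in 5 of 6 GABAergic cells with glia (189 to 655 where found), 1 of 5 purified (550), 3 of 5 OCM-treated (328 to 497) and 2 of 5 pyramidal cells (2.93 and 827). Psmb8 was above 0 in 2 cells and Psmb9 in 1. The activators were also sparse. Psme1, of the 11S cap, was found in 2 cells of each GABAergic group and in no pyramidal cell. Psme2, its partner, was found at counts of 21.5 to 263 in 11 cells, and Psme4, the large activator PA200, in 5. Psme3 is named in the table only together with other genes and has no value here.

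The 19S ATPases were found in 90.0% of pairs in purified cells, 94.4% with glia, 96.7% with OCM and 66.7% in pyramidal cells. Psmc2 (chromosome 4, 9867131 to 9881442) held all 3 zeros among purified cells, with 0, 0, 902, 1619 and 0 against 1741, 1270, 877, 2510 and 1298 with OCM. With glia it was 670 at the lowest, 1356 at the median and 4075 at the highest. Every OCM-treated and glia-cultured cell thus had Psmc2, and 3 of 5 purified cells had 0 reads. Psmc1 was above 0 in all 21 cells, at 1574 to 6169 in purified and 1124 to 2645 in glia-cultured cells. Psmc5 was 0, 3934, 4.40, 4376 and 0 in pyramidal cells and 2140, 3421 and 7749 with glia: the pyramidal cells fell into 2 within the glia-cultured range and 3 near or at 0.

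The 13 Psmd genes, classed by name alone as non-ATPases of the cap, were above 0 in 85.9% of pairs with glia and 84.6% with OCM. In pyramidal cells this was 70.8% and in purified cells 69.2%. Psmd3, a scaffold subunit, was 1800, 1866, 0, 0 and 168 in purified cells and 688, 1958 and 8108 with glia, so 3 of 5 purified cells lay below every glia-cultured cell. Psmd14, the deubiquitinase that removes the ubiquitin chain, was 0, 0, 3164, 0 and 937 in purified cells and 0, 2438, 296, 4647 and 5741 with OCM. Psmd4, a ubiquitin receptor, was above 0 in 4 of 5 purified cells and in all glia-cultured and OCM-treated cells. Psmd1 was at 0 in 3 pyramidal cells, 2 purified cells, 1 glia-cultured cell and no OCM-treated cell. Psmd11 was found in 2 of 5 pyramidal cells and 5 of 6 glia-cultured cells. Psmd5 and Psmd9, assembly chaperones of the cap and no subunits of the finished particle, are in this class by their names. Psmd5 was above 0 in 9 of 21 cells.

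**Figure D2:**
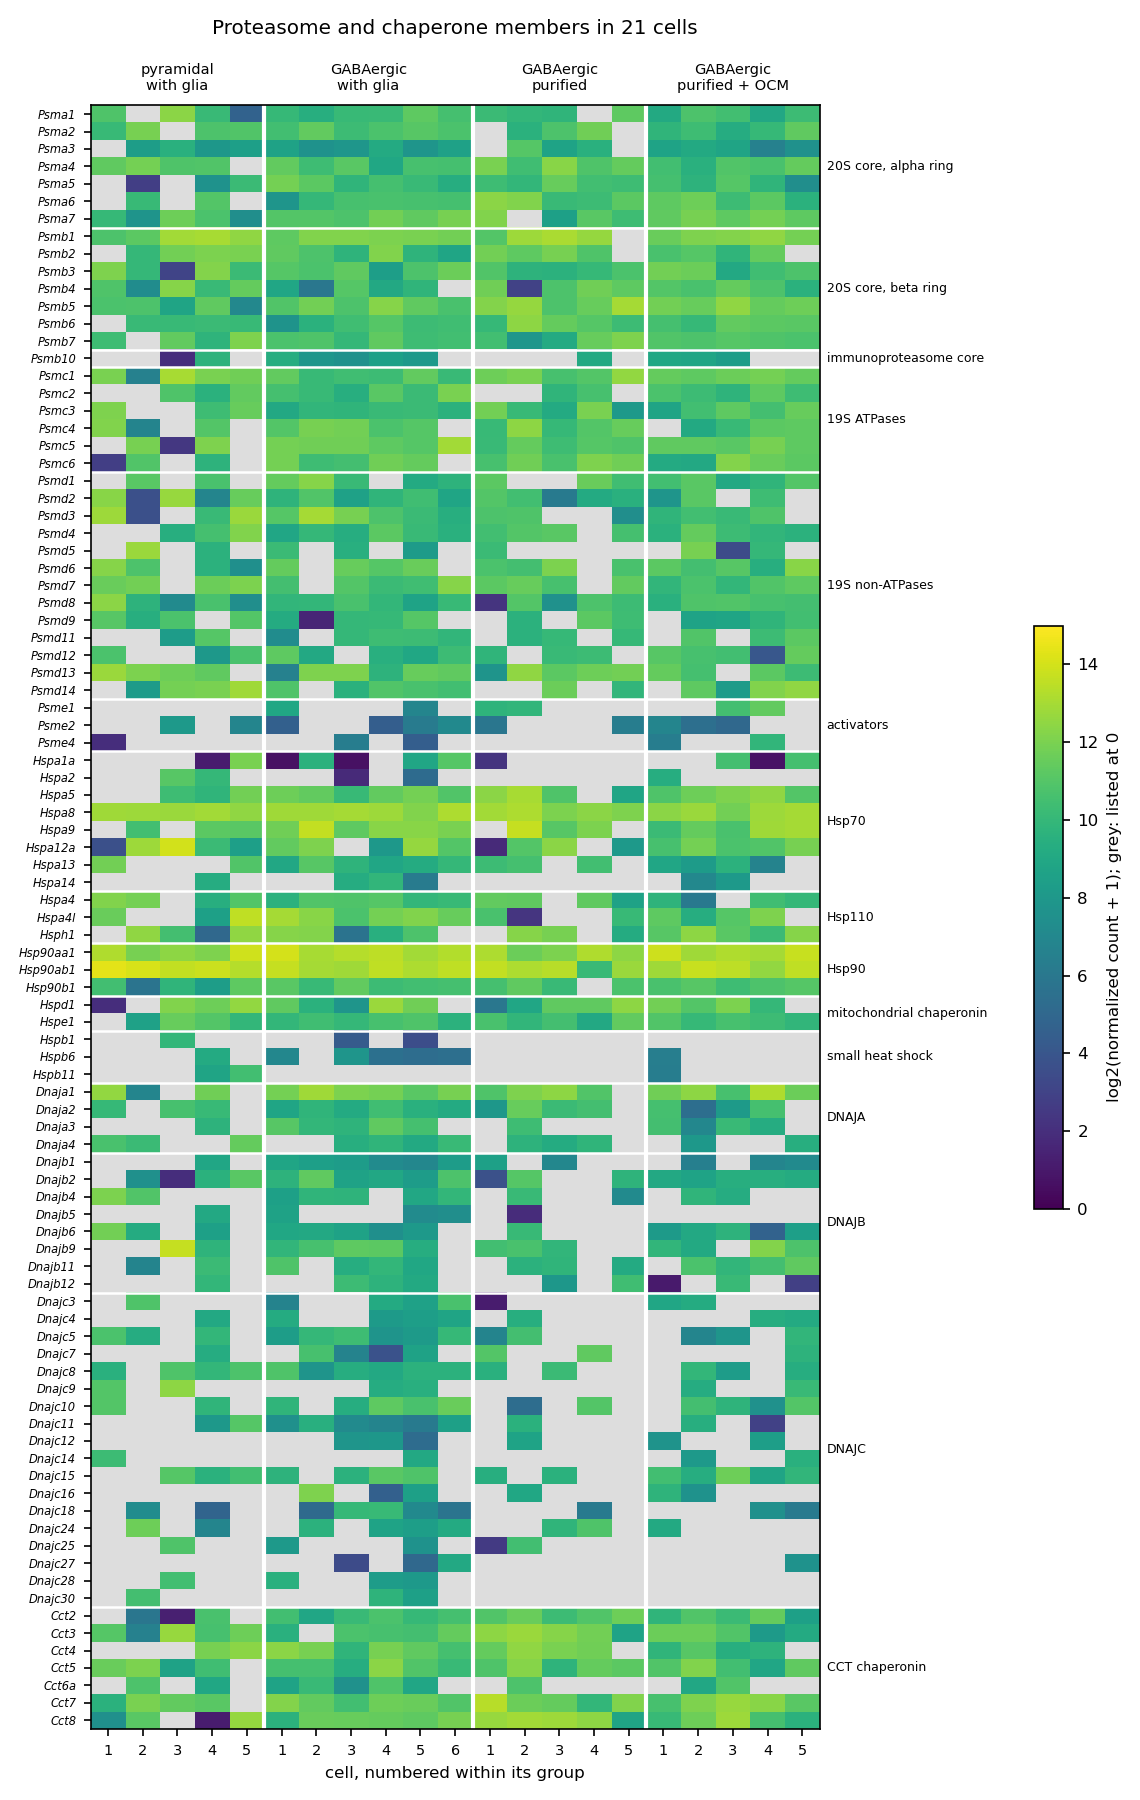
All 93 members (rows, by class) in the 21 cells (columns, by group), coloured by log2 of the normalized count plus 1, with cells listed at 0 in grey. The grey fields concentrate in the DNAJ classes, the small heat shock proteins and the activators, and lie more often in pyramidal and purified cells than in GABAergic cells with glia; Hspa8, Hsp90aa1 and Hsp90ab1 are filled in all 21 cells.

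Among the chaperones, Hspa8, Hsp90aa1 and Hsp90ab1 were above 0 in all 21 cells. Hspa8 (chromosome 8, 44989394 to 44993260) was 7551, 7060, 6992, 7593 and 5814 in pyramidal cells and 7771, 9199, 4260, 5397 and 4376 in purified cells. It was 5435, 6873, 3531, 7243 and 8150 with OCM and 4620, 7441 and 9037 with glia. All 4 groups overlapped for Hspa8 and their means lay between 6201 and 7289. Hsp90aa1, the stress-responsive cytosolic Hsp90, had means of 10809 (SD 3264, 6 cells) with glia, 6339 (SD 2828, 5 cells) in purified, 10709 (SD 3377) in OCM-treated and 7799 (SD 4859) in pyramidal cells. Its purified range of 3183 to 9544 overlapped that with OCM, 7528 to 15053. Hsp90ab1, the constitutive form, was 21750, 17705, 12856, 14099 and 10358 in pyramidal cells and 7519, 10509 and 13182 with glia, with 3 pyramidal cells above every glia-cultured cell. Purified cell 4 had a lower count of it, 1125, than any other cell.

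The Hsp70 genes of the organelles split the groups by detection. Hspa5 (BiP), the Hsp70 of the ER, was 0, 0, 1301, 909 and 3638 in pyramidal and 5299, 8257, 1870, 0 and 454 in purified cells. It was 1882, 3324, 4444, 5914 and 2007 with OCM and 1110, 2702 and 3785 with glia, and so was found in every cell of these groups. Hspa9 (mortalin; chromosome 18, 27730865 to 27749235), the Hsp70 of mitochondria, was 0, 1380, 0, 2346 and 2266 in pyramidal cells and 2524, 4581 and 12465 with glia. No pyramidal cell reached the lowest glia-cultured cell, a pattern found in 1.84% of all symbols. In purified cells Hspa9 was 0, 13035, 2193, 4250 and 0. Hspa1a, the heat-inducible Hsp70, was 3.71 in purified cell 1 and 0 in the other purified cells. Hspa1a reached 3972 in pyramidal cell 5, 2120 at the highest with glia, and 1476 and 1554 in OCM-treated cells 3 and 5. Hspa1a has a near-identical copy, Hspa1b, without a row of its own here, so reads of the pair may be split or lost and its values are uncertain. Hspa2, another Hsp70, was found at 2229 and 1025 in pyramidal cells 3 and 4, the cells with oligodendrocyte markers, and at 0 in the other pyramidal cells. Hspa13, an Hsp70 of the ER, was above 0 in all glia-cultured cells (471 to 2184) and at 0 in 2 purified cells. Hspa14, which sits at the ribosome, was above 0 in 6 of 21 cells and in no purified cell.

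Of the 3 Hsp110 genes, Hspa4l was lower in purified cells and the other two spanned the glia-cultured range. Hspa4l (chromosome 2, 127625737 to 127677499) was 1668, 4.07, 0, 0 and 1089 in purified cells and 1729, 4117 and 7933 at the lowest, median and highest with glia. All purified cells thus lay below all glia-cultured cells, as they did for 1.51% of all symbols. With OCM it was 2460, 642, 2095, 4390 and 0, which overlapped both. Hsph1 (chromosome 12, 6322687 to 6341898), whose promoter holds a heat shock element, was 0, 4956, 3855, 0 and 588 in purified and 2211, 5543, 2335, 1182 and 4892 in OCM-treated cells, overlapping but with no OCM-treated cell at 0. With glia it was 0, 1271 and 4905. Hspa4 was above 0 in every glia-cultured cell, at 807 to 2088. In purified cells it was 2705, 2566, 0, 2592 and 392, so that 3 lay above every glia-cultured cell and 2 below. Its mean count was higher in purified cells (1651) than with glia (1465), while its difference of log2 means was -1.89. With OCM it was 878, 64.6, 0, 1355 and 1005.

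Hspd1 and Hspe1, which share a promoter with the heat shock element, were found in 80.0% of pairs in pyramidal cells, 91.7% with glia, 100% in purified and 90.0% in OCM-treated cells. Hspd1 spread from 0 to 6797 with glia and from 61.8 to 5545 in purified cells. Hspe1 had closer means of 1259 (SD 415, 6 cells) with glia, 1475 (SD 845, 5 cells) in purified and 1354 (SD 400) in OCM-treated cells. The small heat shock proteins were nearly absent from the reads: Hspb1 was above 0 in 3 cells, at most 968 in pyramidal cell 3, Hspb6 in 7 cells, and neither in any purified cell. Hspb11, which bears the name but is a protein of ciliary transport, was above 0 in 3 cells. A value of 0 allows up to 3 reads, which is a normalized count of 0.909 to 17.7 depending on the cell.

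The J-domain proteins were found less often in purified than in glia-cultured cells. DNAJC members were above 0 in 62.0% of pairs with glia, 22.2% in purified, 37.8% in OCM-treated and 30.0% in pyramidal cells. Dnajc5, the cysteine string protein of synaptic vesicles, was 106, 1478, 0, 0 and 0 in purified and 212, 665 and 1301 in glia-cultured cells. Dnajc3, an ER cochaperone, was above 0 in 4 of 6 glia-cultured cells and exceeded a count of 5 in no purified cell. Dnajc7 was at 0 in 3 of 5 purified cells and 2020 and 2571 in the other two. Dnajc6, the auxilin of synaptic vesicles, has no row of its own. Dnaja1, the main cytosolic partner of Hspa8, was 6113, 112, 0, 3498 and 0 in pyramidal cells and 2334, 3765 and 7374 with glia. Dnaja2 was above 0 in every glia-cultured cell, at 442 to 1336, and in 4 of 5 purified cells, where it reached 2924. Dnaja3 (chromosome 10, 11060493 to 11085142), a mitochondrial J protein, was above 0 in 1 of 5 pyramidal cells (829) and 1 of 5 purified cells (1287). It was found in 5 of 6 glia-cultured and 4 of 5 OCM-treated cells. Dnajb1, the partner of Hspa1a in the heat shock response, was 124, 315 and 458 at the lowest, median and highest with glia, and 365, 0, 123, 0 and 0 in purified cells. Dnajb6, which suppresses aggregation, was 0, 1082, 0, 0 and 0 in purified cells and 287, 524, 840, 24.9 and 347 with OCM. Dnajb9 and Dnajb11, both of the ER, were each above 0 in 4 OCM-treated and 3 purified cells.

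The 7 CCT genes picked by name had a higher mean share of reads in purified than in glia-cultured cells, with overlapping ranges. They were found slightly less often in purified cells. The 7 Cct subunits were above 0 in 85.7% of pairs in purified cells, 95.2% with glia, 88.6% with OCM and 68.6% in pyramidal cells. In purified cells their share of reads averaged 0.315% (SD 0.114, 5 cells), against 0.176% (SD 0.0561, 6 cells) with glia, with ranges of 0.151% to 0.446% and 0.106% to 0.274%. Purified cells titled S had 0.267% to 0.446%, against 0.164% in the 1 glia-cultured cell titled S. The only purified cell titled P had 0.151%, within the 0.106% to 0.274% of glia-cultured cells titled P. Cct8 (chromosome 11, 27130172 to 27141881) was 6639, 7646, 7210, 5709 and 438 in purified cells and 781, 2877 and 3875 with glia. Of the purified cells 4 lay above every glia-cultured cell and cell 5, the only one titled P, lay below all of them. Cct3 (chromosome 2, 187669051 to 187693609) was 5697, 6985, 4954, 3552 and 409 in purified cells and 0, 1517 and 2850 with glia, again with 4 purified cells above every glia-cultured cell. With OCM Cct3 was 3176, 3158, 1987, 286 and 575. Cct2 was 0, 59.0, 1.47, 1623 and 0 in pyramidal cells and 475, 1285 and 1742 with glia. Cct5 was above 0 in every GABAergic cell. Cct7 reached 10550 in purified cell 1.

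**Figure D3:**
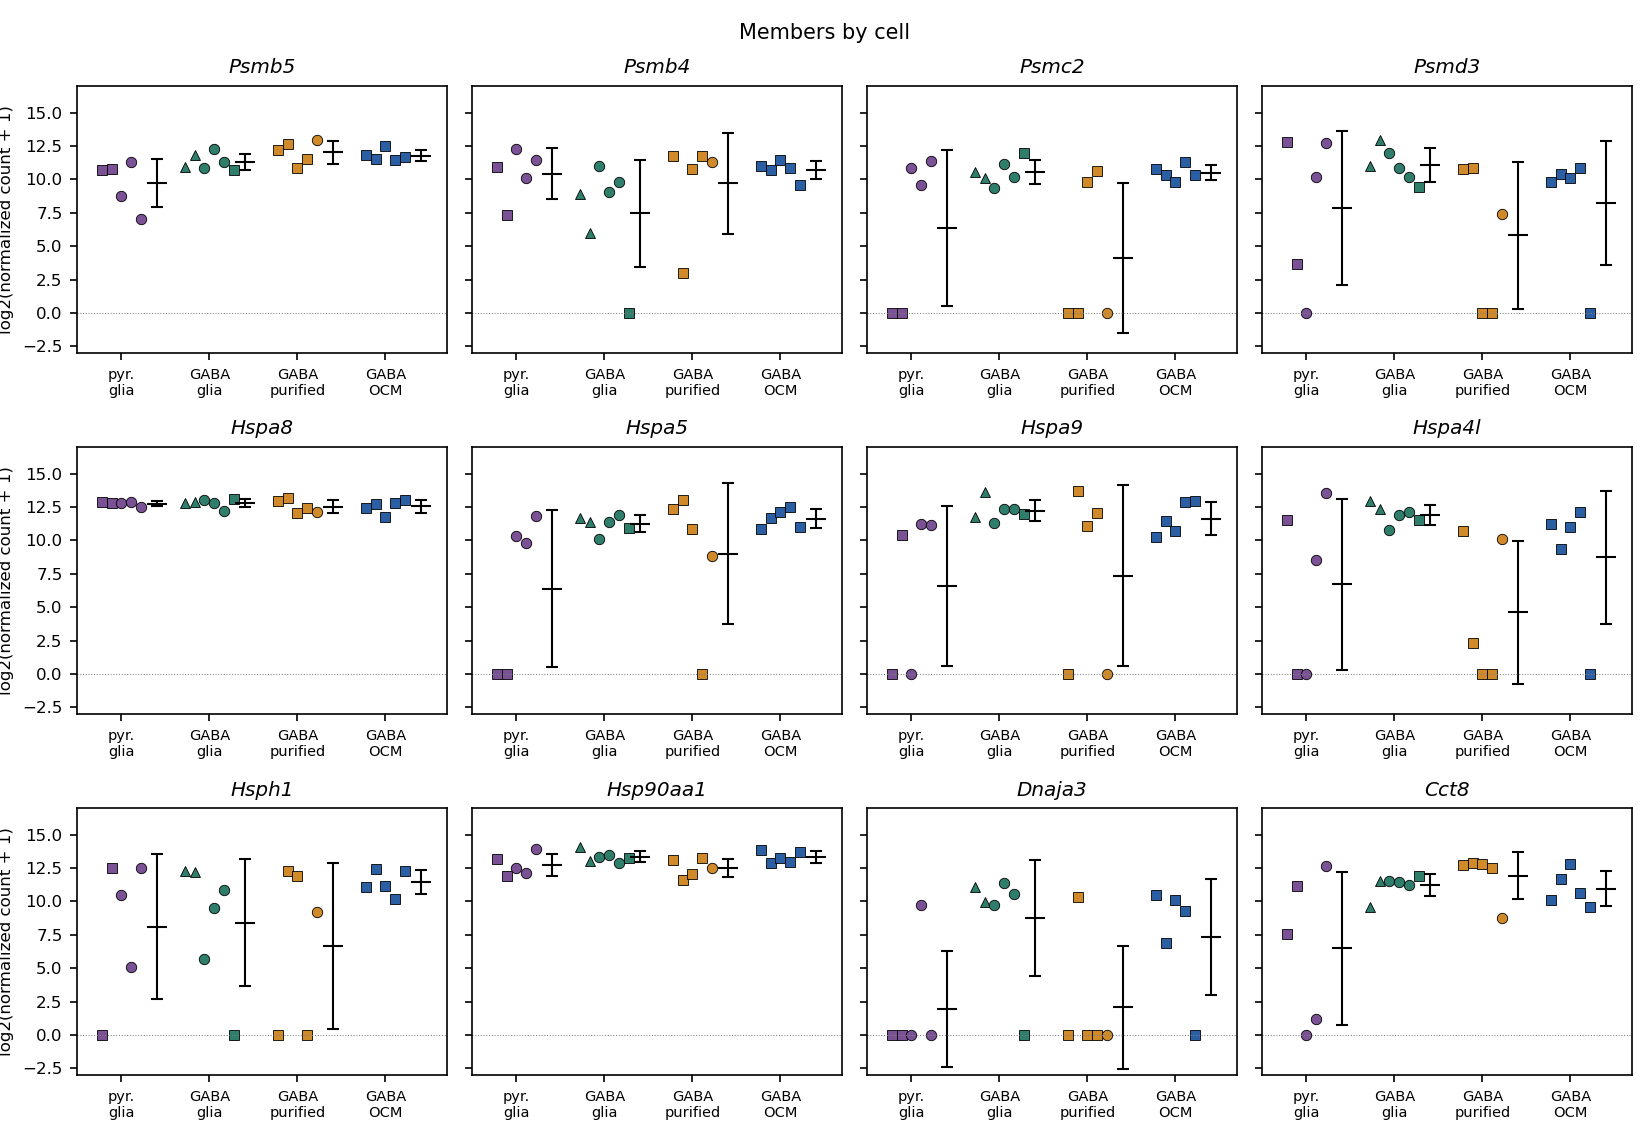
Log2 of the normalized count plus 1 (y axis) of 12 members in each cell, by group, with the title letter as the shape and the mean and SD over 5 or 6 cells as a bar; points on the dotted line are at 0. Hspa8 is level in all groups, and Psmc2 and Dnaja3 are at 0 in 3 and 4 of 5 purified cells. Hspa4l lies lower in all purified cells than in all glia-cultured GABAergic cells, as do 1.51% of all symbols.

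To compare groups, the mean of log2(normalized count + 1) over cells was subtracted between groups, for symbols above 0 in at least 3 cells of the pair. A member at 0 in a cell pulls this value down strongly, so it largely reads detection. A difference past 1 on the log2 scale was counted. With all cells kept and the authors' scaling, each count stands beside the share of all symbols past the same limit. The 4 comparisons share groups, so their values are not independent of each other.

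Between pyramidal and GABAergic neurons with glia, most members were lower in pyramidal cells, as were most genes. Of 36 measured proteasome members 25 were lower (69.4%) and 2 higher (5.56%), and of 54 chaperones 41 were lower (75.9%) and 3 higher (5.56%). Over all 6571 symbols, 64.2% were lower and 13.3% higher. The proteasome median was -1.68 and the chaperone median -2.90, beside -2.05 for all symbols. Among proteasome classes with at least 3 measured members, medians ran from -0.40 for the 13 Psmd genes, classed by name as non-ATPases, to -3.82 for the 6 ATPases. The alpha ring had -2.04 and the beta ring -1.27. Hsp90 had -0.62 over 3 members, DNAJA -4.51 over 4, DNAJB -3.17 over 8, DNAJC -3.11 over 17 and CCT -3.74 over 7. Without pyramidal cells 3 and 4 the family medians were -2.12 and -3.47, beside -2.46 for all symbols. There 4 proteasome and 2 chaperone members were higher and 25 and 41 lower, with no share of all symbols given beside them. Of the members 1, Hspa9, had all pyramidal cells below all GABAergic cells, at a difference of -5.66, or -5.02 without cells 3 and 4. Over all symbols 1.84% were lower in this way and 0.243% higher. Among genes above 0 in at least 4 in 5 cells, 17 of 25 proteasome and 16 of 22 chaperone members were lower, beside 57.2% of symbols, and 2 and 1 were higher, beside 10.8%.

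The largest differences toward pyramidal cells, among members found in at least 4 of them, were Psmb4 (2.96), Cct3 (1.72), Psmd9 (1.48), Hspa12a (0.65) and Hsp90ab1 (0.56). Psmb4, a beta subunit, was 1904, 159, 5008, 1130 and 2796 in pyramidal cells and 0, 505 and 2112 with glia. Hspa12a was 11.8, 7166, 16154, 1192 and 346 in pyramidal cells. Its highest count lay in cell 3, and without cells 3 and 4 its difference was -0.87. Several of these values moved when a single GABAergic cell was left out. Cct3 had -0.05 and Psmd9 0.40 without cell 2, Psmb4 1.47 and Psmd9 0.08 without cell 6, and Hspa12a -1.18 without cell 3. The largest toward GABAergic cells were Dnaja3 (-6.85), Cct2 (-6.59), Psmc5 (-6.48), Cct4 (-6.47) and Psma5 (-6.36). In each of these 5 at least 2 pyramidal cells were at 0. The ratio of group means of the plain counts, which weighs detection less, had the other sign for 10 of the 27 proteasome and 12 of the 44 chaperone members past 1.

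Between purified and glia-cultured GABAergic neurons, 72.0% of chaperones and 47.2% of proteasome members were lower in purified cells, on either side of the 64.4% of all symbols. These were 17 of 36 proteasome members, with 7 higher (19.4%), and 36 of 50 chaperones, with 2 higher. Over all 6302 symbols 692 (11%) were higher. The family medians were -0.87 and -2.51, beside -2.13 for all symbols. The difference between the families is a description, and detection in these cells moved with it. Among genes above 0 in at least 4 in 5 cells, 9 of 25 proteasome members were lower (36.0%) and 5 higher, and 11 of 21 chaperones were lower (52.4%) and 2 higher, beside 47.0% and 11.2% of 1393 symbols.

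By class, the 19S ATPases had a median of 0.70 and the CCT subunits 0.44, while DNAJB had -3.94, DNAJC -3.89 and Hsp70 -3.39. The beta ring stood at -0.40, the non-ATPases at -1.49 and the alpha ring at -2.01. All 15 measured DNAJC members were below 0, as were 5024 of 6302 symbols, and 13 of the 15 were lower by 1 or more (86.7%), beside 64.4% of symbols. The largest differences upward were Cct3 (2.79), Psmb4 (2.25), Psmc6 (2.07), Psmc4 (1.61) and Psmd6 (1.22). Psmb4 was 3486, 6.78, 1790, 3409 and 2506 in purified cells. Psmc6 was 1585 to 4346 in purified cells and 0 in GABAergic cell 6 with glia. Leaving out a cell at 0 from the lower group always shrinks such a difference, so only the size that remains is read. With a single glia-cultured cell at 0 left out, only Cct3 of the 5 stayed past 1. Without cell 6 Psmb4 had 0.76, Psmc6 0.20, Psmc4 -0.28 and Psmd6 -0.30, and without cell 2 Cct3 had 1.03 and Psmd6 -0.30. Without cell 6 the proteasome members higher by 1 dropped from 7 to 2. The median of all symbols was then -2.23, and no share of all symbols past 1 is given for that setting. The largest downward were Hspa4l (-7.30), Dnaja3 (-6.72), Psmc2 (-6.48), Dnajc11 (-5.69) and Dnajc5 (-5.65). Hspa4l was the 1 member whose purified cells all lay below, a pattern found in 1.51% of all symbols, and none had them all above, beside 0.159%. The ratio of means had the other sign for 5 of 24 proteasome and 6 of 38 chaperone members past 1.

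OCM-treated neurons had more members higher than purified neurons, as they had more genes higher altogether. Of 36 proteasome members 18 were higher and 3 lower (8.33%), and of 44 chaperones 24 were higher (54.5%) and 8 lower (18.2%). Over all 5143 symbols 56.0% were higher and 16.4% lower. The medians were 1.01 and 1.47, beside 1.40 for all symbols. By class, the medians were 4.12 for the 3 Hsp110 genes, 3.27 for Hsp70, 2.19 for DNAJB, 2.09 for the non-ATPases, 1.66 for the alpha ring and 1.53 for DNAJC. The CCT subunits had -0.89 and the ATPases 0.11. The purified cells are shared with the comparison before. Among genes above 0 in at least 4 in 5 cells, 11 of 27 proteasome and 7 of 20 chaperone members were higher, beside 41.9% of symbols, and 3 and 5 were lower, beside 12.5%.

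The largest upward were Psmc2 (6.40), Dnajc15 (6.23), Dnajb6 (6.0), Dnaja3 (5.30) and Hsph1 (4.76). Dnajc15, a J protein of mitochondria, was 1423, 654, 3359, 435 and 923 with OCM and 672, 0, 776, 0 and 0 in purified cells. The largest downward were Psmd2 (-3.40), Psmc4 (-2.68), Psmd13 (-2.29), Cct4 (-1.54) and Hspa4 (-1.30). Psmd2, a scaffold of the cap, was 223, 2325, 0, 1278 and 0 with OCM and 1993, 1410, 71.3, 581 and 743 in purified cells. With a single OCM-treated cell at 0 left out, which always brings such a difference nearer to 0 or past it, only Psmd2 of the 5 stayed past 1. Without cell 3 Psmd13 had -0.12, Psmd2 -1.94 and Hspa4 0.51. Without cell 1 Psmc4 had -0.60, and without cell 5 Cct4 had 0.46 and Psmd2 -1.94. Hsph1 had 3.09 without purified cell 1 or 4. No member had OCM-treated and purified cells apart, against 0.817% of symbols higher and 0.233% lower. The ratio of means had the other sign for 6 of 21 proteasome and 4 of 32 chaperone members past 1.

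Against GABAergic cells with glia, OCM-treated cells had proteasome members about as often higher as lower, and chaperones lower about as often as all symbols. Of 37 proteasome members 8 were higher (21.6%) and 7 lower (18.9%), and of 52 chaperones 6 were higher (11.5%) and 25 lower (48.1%). Over all 6772 symbols 20.3% were higher and 44.4% lower. The medians were 0.22 and -0.75, beside -0.72 for all symbols. None of the 7 alpha subunits and none of the 3 Hsp90 members moved by 1 or more, at -0.79 to 0.76 and -0.05 to 0.11. DNAJC had a median of -2.15 over 16 members, 11 of them lower by 1. The largest upward were Psmd6 (3.31), Psmb4 (3.25), Dnajc15 (3.13), Hsph1 (3.03) and Hspa12a (2.04), which had a ratio of means near 1 (0.994). With a single glia-cultured cell at 0 left out, which always shrinks such a difference, only Hspa12a of these 5 fell below 1. Psmd6 had 1.79 and Dnajc15 1.75 without cell 2 or 6, Psmb4 1.76 and Hsph1 1.35 without cell 6, and Hspa12a 0.21 without cell 3. The largest downward were Dnajc11 (-5.13), Dnajc5 (-4.20), Dnajc24 (-4.17), Dnajb4 (-4.01) and Hspb6 (-3.91). Dnajc11, of the mitochondrial inner membrane organising system, was 0, 680, 0, 6.57 and 0 with OCM and 71.5, 162 and 716 with glia. Among genes above 0 in at least 4 in 5 cells, 6 of 31 proteasome and 4 of 30 chaperone members were higher, beside 17.4% of symbols, and 5 and 10 were lower, beside 31.6%. No member had the groups apart, against 0.177% of symbols higher and 0.517% lower. The ratio of means had the other sign for 3 of 15 proteasome and 1 of 31 chaperone members past 1.

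**Figure D4:**
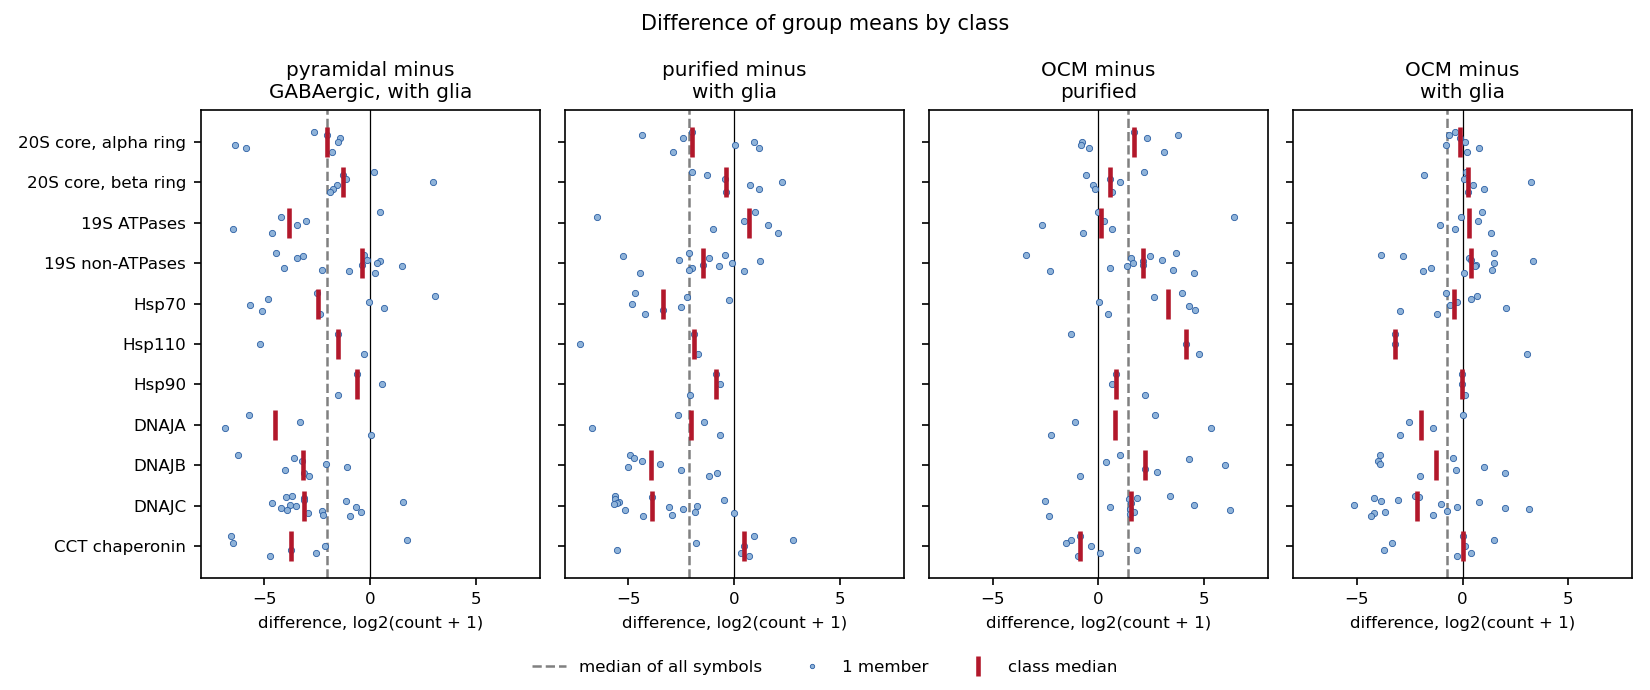
Difference of group means of log2(normalized count + 1) on the x axis for members (points) of 11 classes with at least 3 measured members in each comparison, with the class median as a red bar and the median of all symbols as a dashed line. In purified minus glia-cultured cells the ATPases (0.70) and CCT (0.44) lie right of the dashed line at -2.13 and DNAJC (-3.89) left of it.

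Genes that work with these complexes were followed through 4 lists, whose counts of genes past 1 mostly lay near the shares of all symbols. Those shares were 64.2% lower and 13.3% higher in pyramidal cells, 64.4% lower and 11% higher in purified cells, 56.0% higher and 16.4% lower with OCM against purified, and 20.3% higher and 44.4% lower with OCM against glia. The proteasome partners (assembly chaperones, ubiquitin receptors, ubiquitin genes) had 18 measured genes in pyramidal against glia-cultured GABAergic cells, of which 13 were lower and 0 higher by 1. In purified cells 11 of 18 were lower and 1 higher, with OCM against purified 9 of 17 were higher and 2 lower, and with OCM against glia 5 of 19 were higher and 8 lower. The chaperone partners (cochaperones, nucleotide exchange factors, prefoldin) were lower in 19 of 25 and higher in 1 in pyramidal cells, and lower in 13 of 25 and higher in 4 in purified cells. With OCM 13 of 25 were higher and 3 lower than in purified cells, and 6 of 26 higher and 7 lower than with glia. Their median in purified cells was -1.11, beside -2.13 for all symbols. The 16 ER folding partners measured had 11 lower and 3 higher in pyramidal and 9 lower and 3 higher in purified cells. With OCM 9 of 15 were higher and 1 lower than in purified cells, and 5 of 16 higher and 6 lower than with glia. The 6 mitochondrial proteostasis genes had 4 lower and 1 higher in pyramidal and 5 lower and 0 higher in purified cells. With OCM 4 of 5 were higher and 1 lower than in purified cells, and 2 of 6 each way against glia.

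The members in whose promoter the search found a stress motif did not share 1 pattern across the groups. Of those with a heat shock element, Hspa8 had differences between -0.27 and 0.02 in the 4 comparisons and Hsph1 between -1.73 and 4.76. Hspd1 and Hspe1 lay between -2.04 (pyramidal against GABAergic cells) and 1.13 (purified against glia-cultured cells). Of those with an ER stress element, Hspa5 and Hsp90b1 had -2.23 and -2.11 in purified against glia-cultured cells and 2.62 and 2.22 with OCM against purified. Each was at 0 only in purified cell 4 among GABAergic cells. The mean count of Hspa5 had the other sign in purified against glia-cultured cells, at 3176 (SD 3519, 5 cells) and 2602 (SD 963, 6 cells). Dnajc3 had -5.62 and 3.39 in the same comparisons, and was found in 2 of 5 OCM-treated cells.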

How the data were processed

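Single neurons were sequenced, and the table covers 34976 rows, of which 18376 carry no symbol. Per the submitters' processing notes, STAR 2.4.0, FastQC, Picard, SAMtools and DESeq2 were used with build rn6. Neither labels nor notes give the read counter, the annotation or the use of strand. The deposited signal values are counts divided by a size factor per cell: 100% of the values above 0 came out as whole reads within 0.05, which gave the depth of 1817671 to 25160911 reads. For a symbol with several rows the one with the highest mean was used.

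Differences are group means of log2(value + 1) subtracted, over symbols above 0 in at least 3 cells of the pair. Values are not scaled by gene length, so levels of different genes were not compared. Each group counts as 1 sample, since no label names an animal or culture, so no count model and no p-value was used. Members were named by 3 rules: 53 anchors listed by role, the 5 largest differences in each direction (found in 4 or more cells of the higher group), and any member without overlap. Psmd3, Psmd5 and Hspb11 were added after their values were seen. The members and lists were chosen with earlier results of these data known. Alternatives were other pseudocounts, scalings and filters, the ratio of group means, title letters, and leaving out cells. The difference and the ratio of group means were tested on simulated counts of higher-expressed genes with no added zeros. That test covers neither genes often at 0 nor the motif search. Python 3.11.15, numpy 2.4.6, pandas 2.3.3 and matplotlib 3.10.9 were used.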

Additional observations from a re-analysis of the deposited data

Results flagged for a closer look

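In 4 of 44 sets of cells looked at, the highest cell stood apart from the others of its group by Dixon's criterion, which chance alone meets in about 1 of 20. The number of chaperone members above 0 was 43 in pyramidal cell 4, against 26 in the next cell. That cell also held oligodendrocyte markers at a summed normalized count of 103570, and the part of those markers in the number was not tested. In OCM-treated cell 2 the number of chaperone members above 0 was 40, against 34 in the next. Psmd8, a non-ATPase subunit of the proteasome cap, was 5412 in pyramidal cell 1, against 1636 in the next. Psmb5, the chymotrypsin-like subunit, was 5720 in OCM-treated cell 3, against 3604 in the next.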

How the results depend on the processing

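No paired analysis was possible because the labels give no replicate number shared between groups and no test was run. The medians of differences in log2(value + 1) largely read detection. As the log2 ratio of group means, the medians for proteasome and chaperone members were 0.10 and -0.16 in pyramidal against GABAergic cells, 0.058 and -0.57 in purified against glia-cultured cells, and -0.087 and 0.13 in OCM-treated against purified cells. The medians of all symbols were -0.32, -0.47 and 0.073. Over cells above 0 only, the family medians were 0.19 and 0.020, 0.33 and -0.048, and -0.20 and 0.059. Beside them, all symbols had 0.40, 0.24 and -0.39. With the median over cells, the proteasome had -0.31, 0.030 and 0.12, and chaperones 0.11 with OCM against purified. All symbols had -2.27, -2.19 and 0.27 in these 3 comparisons. The pyramidal chaperone median was -1.62 with a pseudocount of 10 and -0.51 among cells titled S, beside -1.26 and 0 for all symbols. In purified against glia-cultured cells, the proteasome and chaperone medians were -0.089 and -0.64 among cells titled S and -0.054 and -4.91 among cells titled P. For all symbols the median was 0 among cells titled S and -4.27 among cells titled P. Among genes above 0 in at least 4 in 5 cells the chaperone median with OCM against purified was 0.064, beside 0.575 for all symbols. Leaving out 1 cell moved the proteasome median with OCM against purified from 0.45 to 1.62. The purified proteasome share of reads kept its direction, with differences of 0.271 points over rows with a symbol, 0.281 without the 20 highest rows, 0.213 among cells titled S and 0.0908 among cells titled P. The chaperone share in purified against glia-cultured cells differed by -0.098 points, by -0.468 among cells titled P (1 purified cell), by 0.112 among cells titled S (1 glia-cultured cell) and by 0.0042 without purified cell 5, so its direction was not stable. When 1 cell was left out, some genes took the other sign: Cct3 in pyramidal cells ran from -0.047 to 2.70, Psmc4 and Psmd6 in purified cells from -0.28 to 2.10 and from -0.30 to 3.42, and Hspa4 and Cct4 with OCM against purified from -3.43 to 0.51 and from -3.93 to 0.46. Hspa12a with OCM against glia was -0.0083 by the ratio of means. With upper-quartile scaling the all-symbol median was -2.57 in purified against glia-cultured cells, where 2 proteasome members were higher and 22 lower. With OCM against purified that median was 1.81, and 27 chaperones were higher and 3 lower. No share of all symbols past 1 is given beside these counts. Counts of members past 1 that moved by over 1.5 times without 1 cell were proteasome members higher in pyramidal cells (2, 1 without glia-cultured cell 2, 4 without pyramidal cell 2) and in purified cells (7, 2 without glia-cultured cell 6), and chaperones lower with OCM against purified (8, 3 without purified cell 4), among others that rested on at most 12 members. The counts without 1 cell also stand without a share of all symbols, so they are descriptions only.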
